A study of Mus musculus with 6 samples.

Results

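Glycolysis breaks glucose down to pyruvate, monocarboxylate transporters move the lactate made from it across the plasma membrane, and the hypoxia-inducible factor HIF is a known activator of many genes of both steps. A set of 34 genes was followed here in natural regulatory T cells (nTregs), Foxp3-expressing CD4 T cells that arise in the thymus. It was drawn up by gene name and holds 2 glucose transporters, 17 glycolytic enzymes including both lactate dehydrogenase chains, 2 enzymes that make or remove the activator of phosphofructokinase, 2 monocarboxylate transporters, 9 other targets of HIF and 2 enzymes of the pentose phosphate pathway. The 34 genes are 34 of the 47643 reference genes listed in every library and 34 of the 12186 that passed a filter on low values, which asked for at least 1 FPKM (fragments scaled by transcript length and library size) in 3 or more libraries. Vegfa passed that filter through the agonist libraries alone.

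One group of cells received 100 nM of an EP4 agonist for 6 h (3 libraries), and the other received DMSO vehicle for the same time (3 libraries). All 6 libraries came from splenic nTregs of C57BL/6 mice of the genotype Foxp3-DTR/EGFP, whose Foxp3 locus is tagged with the diphtheria toxin receptor and green fluorescent protein. Before the treatment, cells of both groups had been stimulated for 2 days through CD3 and CD28 in the presence of IL-2, and after it they were sorted by GFP. The labels give no age for the mice. Whether replicates are separate mice, cultures or aliquots is not stated in the labels. P-values therefore cover library-to-library spread only, and that spread may be technical. The labels name the agonist by its target alone, and in bulk RNA less transcript per cell and fewer cells of a type cannot be told apart.

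The agonist libraries rest on 4.32 to 4.98 gigabases of aligned sequence and the vehicle libraries on 4.49 to 5.65 gigabases. All 8 markers of Tregs and CD4 T cells passed the filter on low values, with summed levels of 2175 to 2332 FPKM in agonist libraries and 2011 to 2172 FPKM in vehicle libraries. Of these markers, Ctla4 averaged 380 FPKM in agonist and 242 FPKM in vehicle libraries, without overlap. Trac went the other way, at 364 and 422 FPKM, also without overlap, and the rest, Foxp3 among them, overlapped between groups. Summed markers of CD8 T cells and NK cells reached at most 19.0 FPKM in agonist libraries and 19.9 FPKM in vehicle libraries. Those of myeloid cells summed to at most 0.568 FPKM in agonist and 1.01 FPKM in vehicle libraries, with S100a8 and S100a9 at 0 in every library. Summed B cell markers reached at most 6.26 FPKM in agonist and 6.07 FPKM in vehicle libraries. Those of erythroid cells summed to 0.869 to 2.98 FPKM in agonist and 1.61 to 6.13 FPKM in vehicle libraries, and their part in the results was not tested. Libraries with the same replicate number resembled each other, so the difference between agonist and vehicle was tested without and with the replicate number as a block. Without the block, 48 of 12186 tested genes passed an adjusted p of 0.05 in limma, 0.394% of them. With the block, 1279 genes passed, 10.5% of them. "Rose" and "fell" below refer to that threshold, and the fit is named each time.

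As background, a T cell that has been stimulated takes up glucose through Slc2a1 and Slc2a3, traps it with hexokinase and passes most of it through glycolysis to lactate. Ldha, Pkm and Eno1 are textbook targets of both MYC and HIF in such cells. HIF binds DNA at a short core motif, ACGTG or GCGTG, and is held down in oxygen by prolyl hydroxylases of the Egln family. EP4 is a prostaglandin E2 receptor that couples to adenylyl cyclase, and the cyclic AMP it raises acts in part through factors that bind the motif TGACGTCA or its shorter form TGACG.

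No member of the set passed in the fit without the block, against the 0.345% of all tested genes that rose and the 0.0492% that fell. At an unadjusted p below 0.05 in the same limma fit there were 3 members (Slc16a3, Vegfa and Ddit4) and 1701 genes in all. With the block, 4 members passed: the lactate transporter Slc16a3, the mitophagy receptor Bnip3 and the mTORC1 inhibitor Ddit4 rose, and the transporter Slc16a1 fell. Those 4 are 11.8% of the set, close to the 10.5% of all tested genes that passed in that fit (4.09% rose and 6.41% fell). The median log2 difference, agonist minus vehicle, was 0.04 over the set and -0.03 over all tested genes, and 25 of the 34 members lay within 0.2 of zero, against 8605 of 12186 tested genes, a similar share. In 4 members (Slc16a3, Slc2a1, Pfkfb4 and Vegfa) every agonist library was above every vehicle library, and in none was every agonist library below, against 7.27% and 12.1% of all tested genes, or 19.4% together. Vegfa had to be higher, as it passed the filter on low values through its agonist libraries alone. It is also among the members at an unadjusted p below 0.05 and those higher in every pair, and adds no support there. The same direction in all 3 pairs was seen in 17 of the 34 members, against 52.3% of tested genes, with 13 members higher in every pair and 4 lower, against 20.7% and 31.6% of tested genes. When pair 2 or pair 3 was left out of the blocked fit, none of the 4 members passed, with adjusted p between 0.094 and 0.187, and without pair 1 only Ddit4 and Slc16a3 did. In those fits 0, 1 and 241 of the 12186 tested genes passed, without pair 2, pair 3 and pair 1 in turn. The lost calls are thus not particular to these members.

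**Figure D1:**
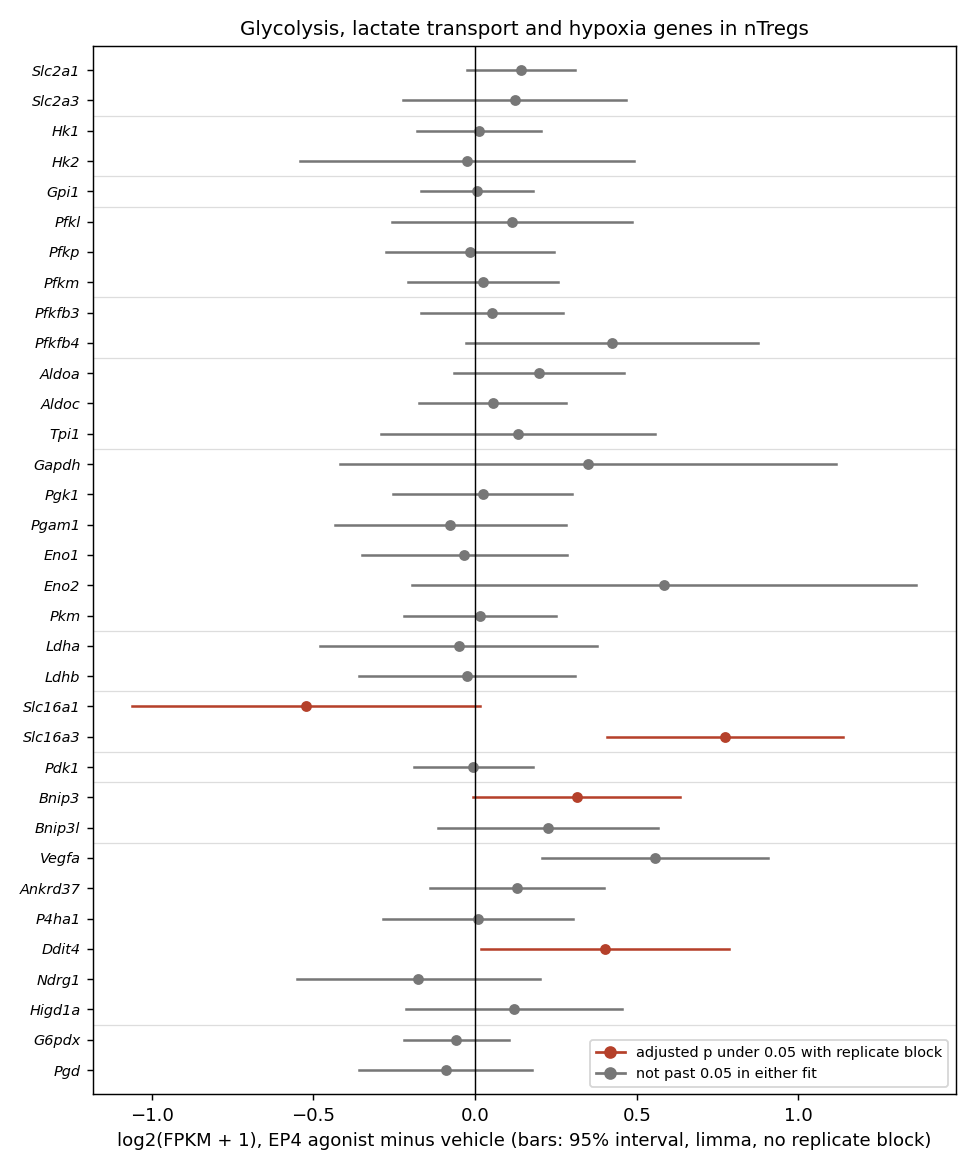
Difference in log2(FPKM + 1), agonist minus vehicle, for the 34 members in order of role (points) with 95% intervals from limma without the replicate block (bars, 3 libraries a group). Coloured genes are the 4 that passed with the block. The enzymes from Hk1 to Ldhb cluster around zero, with Gapdh and Eno2 the widest bars, and Slc16a3 and Slc16a1 lie at 0.77 and -0.52.

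The 2 monocarboxylate transporters changed in opposite directions in the fit with the block. Slc16a3 encodes MCT4, a carrier known for the export of lactate from highly glycolytic cells, and Slc16a1 encodes MCT1, which carries lactate and pyruvate both ways. Their promoters, 250 bases before to 50 bases after the annotated start, are shown because these genes have the largest opposed differences in the set. The sequences are from RefSeq on GRCm38.p6, whose coordinates are those of mm10, and are written 5′ to 3′ on the gene's strand, with the HIF core ACGTG or GCGTG in capitals on either strand.
Slc16a3, chr11:120948817-120949116, plus strand: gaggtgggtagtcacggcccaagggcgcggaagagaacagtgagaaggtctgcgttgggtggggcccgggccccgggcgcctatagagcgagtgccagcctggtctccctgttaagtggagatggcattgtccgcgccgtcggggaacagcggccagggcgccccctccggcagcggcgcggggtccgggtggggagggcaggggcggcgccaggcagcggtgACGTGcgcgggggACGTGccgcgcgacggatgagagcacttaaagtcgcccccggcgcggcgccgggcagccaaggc
Slc16a1, chr3:104638414-104638713, plus strand: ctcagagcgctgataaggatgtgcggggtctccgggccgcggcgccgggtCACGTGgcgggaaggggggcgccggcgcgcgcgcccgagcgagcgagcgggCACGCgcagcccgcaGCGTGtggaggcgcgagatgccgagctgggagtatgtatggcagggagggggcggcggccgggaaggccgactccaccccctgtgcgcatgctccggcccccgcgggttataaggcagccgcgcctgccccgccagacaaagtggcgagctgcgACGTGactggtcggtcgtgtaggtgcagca
The Slc16a3 window holds 2 matches just before the RefSeq start, and the short form TGACG, which overlaps the first of them. That window lies inside the span of the Slc16a3 reference row, which begins upstream of it at 120948480. The window is therefore not the promoter of that earlier start. The Slc16a1 window holds 5 matches, of which a pair overlaps in a CACGTG, the palindrome that MYC and its partners are known to bind. Both windows therefore carry the HIF core, the gene that rose and the gene that fell alike.

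Slc16a3 (chromosome 11, 120948480 to 120960868, plus strand, mm10) stood at 23.3, 30.7 and 36.8 FPKM in agonist libraries 1, 2 and 3, against 16.0, 17.9 and 17.2 FPKM in vehicle libraries 1, 2 and 3. Every agonist library was above every vehicle library, and the agonist libraries were spread more widely, at 30.3 ± 6.77 FPKM against 17.0 ± 0.98 FPKM in vehicle libraries (SD, n = 3 each). The log2 difference was 0.77 with a standard error of 0.16, with an adjusted p of 0.119 in limma without the block and 0.0253 with it. The level was higher in 3 of 3 pairs of the same number, by 0.52, 0.75 and 1.06 on the log2 scale. The deposited tables also list, for each library, loci assembled from its own reads, and the locus over Slc16a3 read 23.3, 47.2 and 38.0 FPKM in agonist libraries, against 24.2, 18.4 and 17.2 FPKM in vehicle libraries. On those rows the groups overlapped through replicate 1, the log2 difference was 0.79 and limma gave adjusted p-values of 0.276 without the block and 0.267 with it, so the call rests on the reference row.

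Slc16a1 (chromosome 3, 104638668 to 104658462, plus strand) stood at 5.52, 9.19 and 8.04 FPKM in agonist libraries, against 7.95, 13.5 and 12.7 FPKM in vehicle libraries. Replicate 1 was the lowest library of both groups, and vehicle library 1 lay below the agonist libraries 2 and 3, so the groups overlapped. Within each pair the agonist library was lower, with log2 differences of -0.46, -0.51 and -0.60. The log2 difference was -0.52 with a standard error of 0.23, an adjusted p of 0.372 without the block and 0.0191 with it. Without agonist replicate 1 it was -0.34. The assembled locus gave a log2 difference of -0.52 and an adjusted p of 0.0242 with the block.

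The ratio of Slc16a3 to Slc16a1 FPKM inside a library does not depend on the scaling between libraries. It was 4.22, 3.34 and 4.58 in agonist libraries, against 2.01, 1.32 and 1.36 in vehicle libraries. Each agonist ratio was above each vehicle ratio, a difference of 1.39 on the log2 scale, with differences of 1.07, 1.34 and 1.76 in the 3 pairs. An exact two-sided permutation test gave p = 0.1, the smallest that 3 libraries against 3 can give, and an adjusted p of 0.5 over the 5 ratios computed. The other 4 ratios were Slc2a3 over Slc2a1, Hk2 over Hk1, Ldha over Ldhb and Pfkp over Pfkl, and their log2 differences were -0.01, -0.04, -0.03 and -0.13, with exact permutation p-values of 0.8, 0.8, 1.0 and 0.3 (n = 3 each).

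Monocarboxylate transporters reach the plasma membrane with a chaperone, basigin (Bsg) or embigin (Emb). Which of these the products of Slc16a3 and Slc16a1 use in nTregs was not tested. Emb (chromosome 13, 117220625 to 117274098, plus strand), which is in the list of lactate and pyruvate handling and not in the set of 34, rose in both fits. It stood at 38.6, 38.7 and 37.0 FPKM in agonist libraries, against 27.3, 22.8 and 23.5 FPKM in vehicle libraries, without overlap. Its log2 difference was 0.62 with a standard error of 0.09, an adjusted p of 0.0409 without the block and 0.0174 with it. That call was lost in the fit without the block when any library other than vehicle replicate 1 was left out, with adjusted p between 0.133 and 0.204. In those fits 0 to 5 of all 12186 tested genes passed. Over all settings the log2 difference of Emb ran from 0.56 to 0.69. Bsg averaged 137 ± 13.4 FPKM in agonist libraries and 133 ± 8.75 FPKM in vehicle libraries (SD, n = 3 each), with a log2 difference of 0.03, a 95% interval of -0.20 to 0.27 and an adjusted p of 0.914 in limma.

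**Figure D2:**
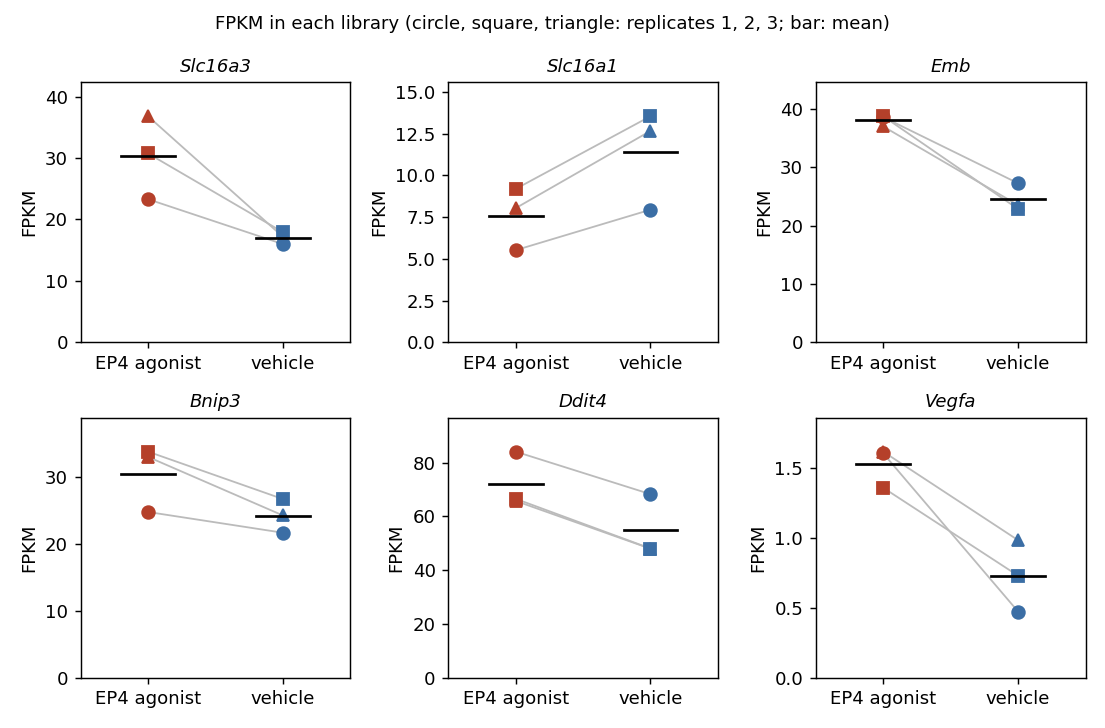
FPKM of Slc16a3, Slc16a1, Emb, Bnip3, Ddit4 and Vegfa in each agonist library (left of each panel) and vehicle library (right), with lines joining libraries of the same replicate number and black bars at the group means. Slc16a3, Emb and Vegfa do not overlap between groups (Vegfa passed the filter on low values through its agonist libraries alone), and each line of Slc16a1 is higher on the vehicle side.

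The glucose transporters did not pass in either fit. Slc2a1 (GLUT1), the main carrier of glucose into stimulated T cells, stood at 25.9, 27.2 and 26.7 FPKM in agonist libraries, against 22.9, 25.1 and 24.2 FPKM in vehicle libraries. Each agonist library was above each vehicle library by a small margin, and the log2 difference was 0.14 with a 95% interval of -0.03 to 0.31 and an adjusted p of 0.431 without the block and 0.109 with it. Slc2a3 (GLUT3), a carrier of high affinity, stood at 11.6, 9.52 and 12.7 FPKM in agonist libraries, against 11.1, 8.32 and 11.5 FPKM in vehicle libraries. Those ranges overlapped, and replicate 2 was the lowest in both groups. Slc2a3 shares its strand with the expressed gene Gm4482, whose reads its row may include.

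None of the 17 glycolytic enzymes passed without or with the block, against 0.394% and 10.5% of all tested genes. At such shares a group of 17 holds few calls or none, so that count does not set the enzymes apart. On the log2 scale 15 of the 17 lay within 0.2 of zero, against 8605 of 12186 tested genes, and the median of the 17 was 0.02. Their levels ran from Pkm, at the 99.31 percentile of tested genes by mean FPKM, to Eno2, at the 18.0 percentile. Pkm, the pyruvate kinase of the last step, stood at 632, 734 and 676 FPKM in agonist libraries, against 643, 730 and 645 FPKM in vehicle libraries. Its log2 difference was 0.02 with a 95% interval of -0.22 to 0.25. Ldha, which turns pyruvate into lactate, stood at 475, 716 and 644 FPKM in agonist libraries, against 521, 716 and 654 FPKM in vehicle libraries. In both groups replicate 1 was far below the others, and the interval of the difference, -0.48 to 0.38 around -0.05 on the log2 scale, leaves room for moderate differences either way. With the block the Ldha interval narrowed to -0.20 to 0.10.

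Enolase Eno1 had the same shape, at 436, 583 and 510 FPKM in agonist libraries, against 459, 563 and 537 FPKM in vehicle libraries. Tpi1, the triose isomerase, stood at 163, 245 and 210 FPKM in agonist libraries, against 154, 218 and 190 FPKM in vehicle libraries, and overlapped between groups. The range of the 3 pair means was wider than the difference between treatments in 17 of 17 enzymes, against 73.6% of all tested genes. In 9 of the 17 the lowest library of each group was replicate 1, against 22.1% of all tested genes, and in 3 the highest was. A range of 3 means can exceed a difference near zero through library-to-library spread alone. The count of 17 therefore does not show that the enzymes followed the replicate number. Gapdh, whose library order differed between groups, is among the 17. Hk1, Pfkp, Pfkm, Tpi1 and Gapdh overlap an expressed gene on the opposite strand, and as the strand setting is not given, reads of both may not have been separated. The same holds for Ankrd37, G6pdx and Hif1a. What the number stands for is not stated in the labels, and its part in these levels was not tested.

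**Figure D3:**
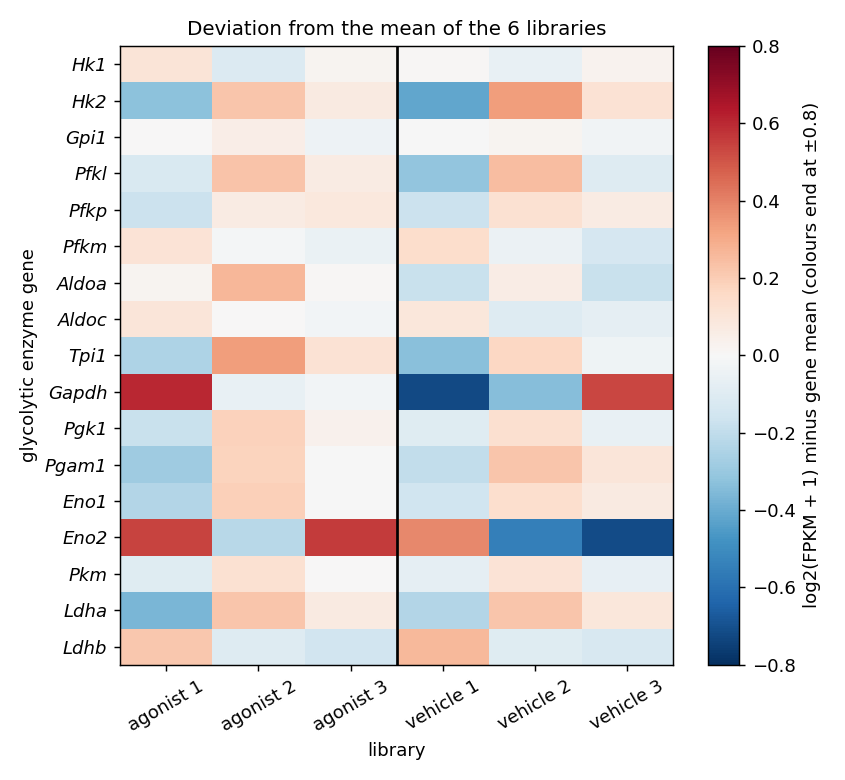
Each glycolytic enzyme's log2(FPKM + 1) in the 3 agonist libraries (left) and 3 vehicle libraries (right), relative to its mean over the 6 libraries (red above, blue below). Ldha, Eno1, Tpi1 and Hk2 are low in replicate 1 of both groups, and Gapdh does not follow that pattern.

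The upper steps of the pathway did not pass in either fit. Hexokinase Hk1, the housekeeping form, averaged 57.5 ± 4.31 FPKM in agonist libraries and 56.9 ± 1.87 FPKM in vehicle libraries (SD, n = 3 each), with a log2 difference of 0.01 and a 95% interval of -0.18 to 0.21. Hk2, the inducible hexokinase, averaged 5.78 ± 1.28 FPKM in agonist libraries and 5.97 ± 1.75 FPKM in vehicle libraries, with an interval of -0.54 to 0.49 that leaves room for sizeable differences either way. Gpi1, which isomerizes glucose 6-phosphate, averaged 179 ± 5.80 FPKM in agonist libraries and 178 ± 3.31 FPKM in vehicle libraries, with an interval of -0.17 to 0.18. The phosphofructokinases Pfkl, Pfkp and Pfkm, which carry out the committed step, had log2 differences of 0.11, -0.02 and 0.03.

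The largest enzyme differences were those of Eno2, Gapdh and Aldoa, and the other genes of aldolase and the lower steps had smaller ones. Aldoa stood at 414, 490 and 411 FPKM in agonist libraries, against 361, 425 and 361 FPKM in vehicle libraries. Each agonist library was above its same-numbered vehicle library, by 0.20, 0.21 and 0.19 on the log2 scale, yet the groups overlapped and limma gave adjusted p-values of 0.476 without the block and 0.0706 with it. Aldoc, Pgk1 and Pgam1 had log2 differences of 0.05, 0.02 and -0.08. Eno2, the enolase known from neurons, stood at 4.35, 2.15 and 4.40 FPKM in agonist libraries, against 3.80, 1.51 and 1.24 FPKM in vehicle libraries. Its log2 difference of 0.59 came mostly from pair 3, at 1.27, and limma gave adjusted p-values of 0.476 without the block and 0.178 with it. On the assembled locus Eno2 read 5.12, 2.57 and 2.01 FPKM in agonist libraries, against 3.998, 1.46 and 1.57 FPKM in vehicle libraries. The difference there was 0.35 (0.33 on the coverage column), and agonist library 3 no longer stood with library 1. Ldhb, the lactate dehydrogenase chain that favours pyruvate, stood at 40.7, 32.4 and 31.2 FPKM in agonist libraries, against 42.0, 32.5 and 31.9 FPKM in vehicle libraries, with replicate 1 the highest in both.

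Gapdh, a step that every cell needs, stood far below its neighbours in the pathway, at 66.3, 41.6 and 42.6 FPKM in agonist libraries, against 25.8, 33.98 and 63.2 FPKM in vehicle libraries. The order of the libraries differed between groups, and the log2 difference of 0.35 had a standard error of 0.33 and an adjusted p of 0.678. The mouse genome holds many processed copies of this gene. In the GENCODE M21 transcripts, 162 genes matched Gapdh at 90% identity or more over 50% or more of their length, and 40 of them had a mean above 1 FPKM. The identity of those 40 ran from 94.59 to 100.0% with a median of 99.21%. A coding stretch shows how close they are: these 60 bases, 406 to 465 of the 1002-base coding sequence of Gapdh (chromosome 6), occur unchanged in 34 of the 40.
Gapdh: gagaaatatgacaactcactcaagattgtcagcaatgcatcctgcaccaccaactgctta
The copies together listed 1784, 2255 and 2077 FPKM in agonist libraries, against 1930, 2326 and 1962 FPKM in vehicle libraries. With them added to the Gapdh row, the log2 difference was -0.02, with an adjusted p of 0.967 without the block and 0.889 with it. The assembled locus over Gapdh read 538.5, 89.0 and 42.1 FPKM in agonist libraries, against 33.3, 33.5 and 62.8 FPKM in vehicle libraries. The Gapdh row is thus uncertain, since reads of the gene and of its copies may have been divided between rows. Copies of Eno1 listed 88.7, 115 and 107 FPKM in agonist libraries, against 92.6, 119 and 111 FPKM in vehicle libraries, a smaller part of that gene's total.

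**Figure D4:**
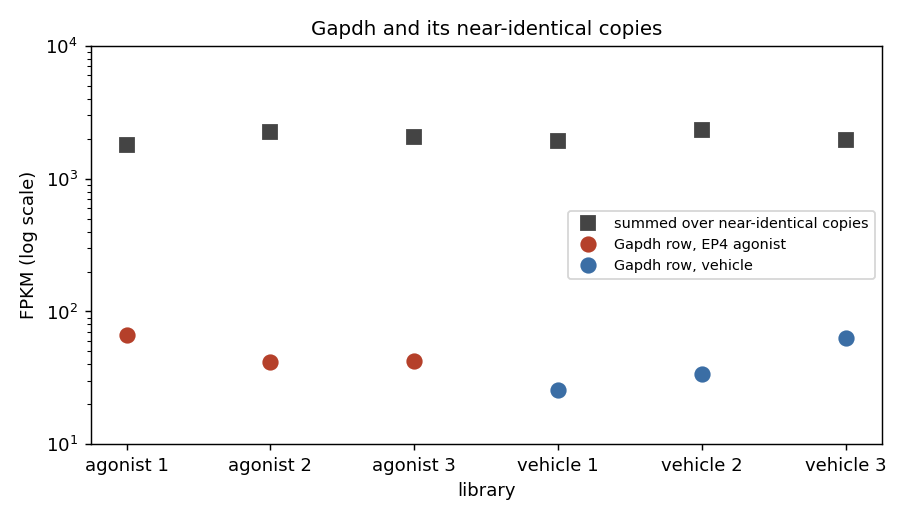
FPKM on a log scale of the Gapdh row (circles) and of the sum over its 162 near-identical copies (squares) in the agonist libraries (left 3) and vehicle libraries (right 3). The copies stay between 1784 and 2326 FPKM, while the Gapdh row lies between 25.8 and 66.3 FPKM.

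The enzymes that tune phosphofructokinase were low. Pfkfb4 stood at 1.76, 1.31 and 1.46 FPKM in agonist libraries, against 0.417, 1.18 and 1.10 FPKM in vehicle libraries. The groups did not overlap, with vehicle library 1 the farthest below the rest, and the log2 difference of 0.42 had an adjusted p of 0.388 without the block and 0.234 with it. The assembled locus read 1.73, 1.28 and 1.44 FPKM in agonist libraries, against 1.84, 1.16 and 1.38 FPKM in vehicle libraries. There Pfkfb4 overlapped between groups, with vehicle library 1 the highest, and the log2 difference was 0.02 (0.10 on the coverage column, and 0.79 on reference rows with a pseudocount of 0.1), so the gap rests on the reference row. Pfkfb3, the isoform with the strongest kinase activity, averaged 6.87 ± 0.33 FPKM in agonist libraries and 6.60 ± 0.59 FPKM in vehicle libraries (SD, n = 3 each), with a log2 difference of 0.05.

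Among the 9 other HIF targets, 2 rose with the block and 7 had a positive log2 difference, with a median of 0.13. Vegfa is among the 7 and had to be positive because of the filter on low values. Of all tested genes, 4.09% rose with the block and 5215 of 12186 had a positive difference, with a median of -0.03. Bnip3, a mitochondrial outer membrane protein that recruits the autophagy machinery, and Ddit4 (REDD1), an inhibitor of mTORC1 that is also induced by glucocorticoids and stress, are the 2 that rose. Their promoters are shown for comparison with the transporters, from the same RefSeq table and with the same capitals.
Bnip3, chr7:138909457-138909756, minus strand: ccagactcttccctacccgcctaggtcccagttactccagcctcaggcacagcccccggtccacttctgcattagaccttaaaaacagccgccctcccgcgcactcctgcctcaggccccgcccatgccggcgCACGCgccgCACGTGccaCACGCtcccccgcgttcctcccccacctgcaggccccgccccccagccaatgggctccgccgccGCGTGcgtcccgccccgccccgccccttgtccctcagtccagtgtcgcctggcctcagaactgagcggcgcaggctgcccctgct
Ddit4, chr10:59951721-59952020, minus strand: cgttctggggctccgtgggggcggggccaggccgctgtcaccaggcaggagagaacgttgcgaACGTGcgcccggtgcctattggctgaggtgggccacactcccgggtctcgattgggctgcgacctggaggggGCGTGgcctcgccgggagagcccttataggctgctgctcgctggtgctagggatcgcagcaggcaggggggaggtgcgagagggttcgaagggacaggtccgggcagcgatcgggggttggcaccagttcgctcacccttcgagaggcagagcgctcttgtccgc
The Bnip3 window holds 5 matches to the HIF core, of which a pair overlaps in a CACGTG, and the Ddit4 window holds 2.

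Bnip3 (chromosome 7, 138890836 to 138909519, minus strand) stood at 24.8, 33.8 and 33.0 FPKM in agonist libraries, against 21.7, 26.7 and 24.2 FPKM in vehicle libraries. Replicate 1 was the lowest in both groups and the groups overlapped, while each pair had the agonist library higher, by 0.19, 0.33 and 0.43 on the log2 scale. The log2 difference was 0.31 with a standard error of 0.14, an adjusted p of 0.366 without the block and 0.0443 with it. On assembled loci the blocked value was 0.0531, past the threshold no longer.

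Ddit4 (chromosome 10, 59949675 to 59951770, minus strand) stood at 84.1, 66.6 and 65.8 FPKM in agonist libraries, against 68.3, 48.1 and 48.0 FPKM in vehicle libraries. Replicate 1 was here the highest in both groups, the opposite of Bnip3, and vehicle library 1 lay above agonist libraries 2 and 3. Each pair was higher with agonist, by 0.30, 0.46 and 0.45. The log2 difference was 0.40 with a standard error of 0.16, an adjusted p of 0.341 without the block and 0.0227 with it, and 0.029 on assembled loci with the block.

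Vegfa, the angiogenic growth factor, stood at 1.60, 1.36 and 1.62 FPKM in agonist libraries, against 0.473, 0.729 and 0.983 FPKM in vehicle libraries. The groups did not overlap, but as the gene passed the filter on low values through its agonist libraries alone, it had to be higher there. Its log2 difference was 0.56 (1.02 with a pseudocount of 0.1), with an adjusted p of 0.186 without the block and 0.0618 with it. Bnip3l, the relative of Bnip3, stood at 34.1, 28.7 and 29.0 FPKM in agonist libraries, against 32.1, 22.0 and 24.7 FPKM in vehicle libraries. It overlapped between groups and had a log2 difference of 0.23, with an adjusted p of 0.532 without the block and 0.102 with it.

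Ndrg1, a stress-induced cytoplasmic protein, stood at 6.77, 5.59 and 6.95 FPKM in agonist libraries, against 6.01, 6.99 and 9.46 FPKM in vehicle libraries. It overlapped and had the lowest log2 difference of the 9, -0.18, with an adjusted p of 0.672. Pdk1, the kinase that closes pyruvate dehydrogenase, averaged 14.2 ± 1.03 FPKM in agonist libraries and 14.2 ± 0.19 FPKM in vehicle libraries (SD, n = 3 each), with a log2 difference of -0.01 and a 95% interval of -0.19 to 0.18. Higd1a, a mitochondrial inner membrane protein, stood at 18.4, 27.0 and 20.2 FPKM in agonist libraries, against 19.1, 21.7 and 18.7 FPKM in vehicle libraries. Ankrd37, an ankyrin repeat protein, stood at 3.27, 3.93 and 4.02 FPKM in agonist libraries, against 3.22, 3.70 and 3.07 FPKM in vehicle libraries. Both overlapped between groups, with log2 differences of 0.12 for Higd1a and 0.13 for Ankrd37. P4ha1, a collagen prolyl hydroxylase subunit, had a log2 difference of 0.01.

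The HIF core was common in the promoters of the set, whether or not the gene passed. Of 34 members, 31 had a promoter in the RefSeq table, and ACGTG or GCGTG, on either strand, was in 28 of them, 90.3%, against 69.2% of the 7977 tested genes with a window and 46.7% of all 27025. ACGTG, with or without GCGTG, was in 67.7% of member windows, against 30.2% of tested genes. GCGTG, with or without ACGTG, was in 74.2%, against 57.7%. The palindrome CACGTG, which overlaps ACGTG, was in 5 member windows, 16.1%, against 12.3% of tested genes. The cyclic AMP motif TGACGTCA was in 1 member window, that of Ldha, 3.23% against 3.91% of tested genes, and its short form TGACG was in 7, 22.6% against 37.9%. Member windows had a median GC content of 62.3%, against 61.0% in tested genes and 52.75% in all genes. A match is a description of these letters in these windows and says nothing of binding.

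The pentose phosphate pathway branches from glucose 6-phosphate and makes NADPH and ribose 5-phosphate. Its oxidative enzymes G6pdx and Pgd averaged 23.4 ± 0.68 and 55.2 ± 4.92 FPKM in agonist libraries, against 24.4 ± 0.81 and 59.0 ± 7.54 FPKM in vehicle libraries (SD, n = 3 each). Their log2 differences were -0.06 and -0.09, and neither passed. In the 6 neighbouring genes of the pathway, which are not in the set, none had a positive log2 difference, the median was -0.18, and Tkt and Rpia fell with the block. Of all tested genes, 6.41% fell with the block and 5215 of 12186 were positive, with a median of -0.03, and quantile normalization lowered the number that fell from 781 to 478. Tkt, the transketolase of the non-oxidative branch, stood at 96.6, 121 and 117 FPKM in agonist libraries, against 120, 155 and 148 FPKM in vehicle libraries, with a log2 difference of -0.34 and an adjusted p of 0.319 without the block and 0.0219 with it. Rpia, the ribose phosphate isomerase, stood at 22.4, 23.7 and 22.0 FPKM in agonist libraries, against 26.3, 28.4 and 26.0 FPKM in vehicle libraries. It did not overlap, and its log2 difference was -0.24 with an adjusted p of 0.243 without the block, 0.0381 with it and 0.0595 with the block and quantile normalization. The row of Tkt shares its strand with the microRNA gene Mir3076.

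The lists around the set gave the following counts. Of 10 genes of HIF and its sensors, 7 were tested, and Hif1a rose in both fits while Arnt and Egln3 rose with the block. Those 3 are 42.9% of the 7, in a list chosen with earlier results known. Over all tested genes 10.5% passed with the block. Hif1a, the oxygen-regulated subunit of HIF, stood at 104, 107 and 118 FPKM in agonist libraries, against 77.2, 71.9 and 71.8 FPKM in vehicle libraries, without overlap. Its log2 difference was 0.57 with an adjusted p of 0.0498 without the block and 0.0208 with it, and the call without the block was lost when any library other than vehicle replicate 1 was left out, with adjusted p of 0.106 to 0.214. In those fits 0 to 5 of all 12186 tested genes passed. Over all settings the log2 difference of Hif1a ran from 0.50 to 0.64. Epas1, the related subunit HIF-2 alpha, did not pass the filter on low values and stood at 0.804, 0.579 and 0.458 FPKM in agonist libraries, against 0.299, 0.325 and 0.146 FPKM in vehicle libraries.

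Arnt, the constant partner of HIF alpha subunits, had a log2 difference of 0.38 with an adjusted p of 0.216 without the block and 0.0209 with it. Egln3, a prolyl hydroxylase that is itself a HIF target, stood at 4.37, 4.27 and 5.01 FPKM in agonist libraries, against 2.68, 2.996 and 2.81 FPKM in vehicle libraries. It did not overlap, and its log2 difference of 0.53 had an adjusted p of 0.102 without the block and 0.0301 with it. Of 34 other hypoxia-inducible genes, a list that shares Hk2 and Pdk1 with the set, 25 were tested, none passed without the block, and 4 rose and 1 fell with it, against 4.09% and 6.41% of all tested genes, with a median of 0.04. Besides Egln3, those that rose were Mxi1, an antagonist of MYC, Bhlhe40, a transcriptional repressor, and Ccng2, an unusual cyclin, with log2 differences of 0.39, 0.52 and 0.22. The 1 that fell was Tfrc, the transferrin receptor, at -0.32, and quantile normalization ended that call (adjusted p of 0.0562). Without agonist replicate 1 the log2 difference was 0.23 for Bhlhe40 and 0.04 for Tfrc, and without vehicle replicate 1 it was 0.85 and -0.66.

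In the list of lactate and pyruvate handling, 15 of 18 genes were tested, Emb rose in both fits and Pcx, pyruvate carboxylase, fell with the block at -0.36. Quantile normalization ended the Pcx call (adjusted p of 0.0519 with the block), and leaving out single libraries moved its log2 difference between -0.71 (without vehicle replicate 1) and -0.07 (without agonist replicate 1). In that of other carbohydrate enzymes, 17 of 29 were tested and Gpd1l fell with the block, at -0.29, a call that quantile normalization ended (adjusted p of 0.0567). Of 15 genes of the MYC and mTORC1 inputs to glycolysis, 13 were tested and Sesn3, a sestrin that restrains mTORC1, rose with the block, at 0.36. The genes passing with the block are 13.3% of those tested in lactate and pyruvate handling. They are 5.88% among the carbohydrate enzymes and 7.69% among the MYC and mTORC1 inputs, against 10.5% of all tested genes. Sesn3 stood at 0.24 without agonist replicate 1 and 0.21 without vehicle replicate 2. When any 1 pair was left out of the blocked fit, none of Arnt, Egln3, Mxi1, Bhlhe40, Ccng2, Tfrc, Tkt, Rpia, Pcx, Gpd1l and Sesn3 passed, with adjusted p between 0.0526 and 0.191. Those fits passed 241, 0 and 1 of the 12186 tested genes, without pairs 1, 2 and 3 in turn. Myc itself had a log2 difference of -0.23, with an adjusted p of 0.625 without the block and 0.140 with it. Txnip, which limits glucose uptake, had a log2 difference of 0.12 and an adjusted p of 0.838 without the block.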

How the data were processed

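RNA sequencing of nTregs gave 6 libraries, 3 per group, grouped by title. Libraries were made with a stranded mRNA kit, per the labels' protocols. Trim Galore, HISAT2 and the mm10 build are named, without versions, in the submitters' processing notes. No source used here gives the program that made the abundances, its annotation release or its strand setting. The authors deposited FPKM values per gene and a coverage signal, per the file headers, for 47643 reference genes and for 19801 to 20833 loci assembled from each library. The column the authors deposited as TPM summed to 1901346 to 1930242 per library, so it was treated as an unscaled score and not used. Fragment counts are not given, so no counting interval is printed, and depth is the aligned sequence implied by coverage and FPKM, 4.32 to 5.65 gigabases.

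FPKM was analysed as log2(FPKM + 1) in limma 3.58.1 (intensity trend, robust variances, statmod 1.5.0, R 4.3.3), for 12186 reference genes with at least 1 FPKM in 3 or more libraries, with Benjamini-Hochberg adjustment over all of them and a threshold of 0.05. On this scale differences of low genes are understated. The fit was tested on simulated data with independent genes. In its blocked case, pairs shared more of their spread than the correlations given below. That run therefore does not show how the blocked fit behaves on these libraries. The members and lists were chosen with earlier results of these data known. Members that passed in either fit, and the 12 with the largest differences among the others, are given in every library, and a few abundant enzymes were added after their values were seen. Listed genes are named if they passed in either fit, up to 5 a list, with Hif1a, Epas1, Bsg, Txnip and Myc in any case.

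Replicate numbers recur in both groups. Deviations from the group means correlated at 0.512, 0.404 and 0.321 for libraries with the same number and at -0.353 to 0.002 otherwise. All 3 exceeded 0.1, and the number was accepted as a pairing on that ground. It comes from these correlations and not from the labels, and a block chosen on the same libraries favours smaller p-values. Deviations within a group cancel out, so high same-number correlations lower the others. The contrast between them is thus not independent support for the pairing. The fit without the block is the main one.

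Ratios within a library were compared by exact permutation. Near-identical copies were found by aligning GENCODE M21 transcripts (at least 90% identity over at least 50% of the copy). Alternatives were another pseudocount (0.1), no filter, at least 5 FPKM, upper quartile and quantile scaling, the coverage column, leaving out each library or pair, assembled loci and added copies. The last 2 were chosen after seeing the data. Python 3.11.15, pandas 2.3.3, numpy 2.4.6 and matplotlib 3.10.9 were used.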

Additional observations from a re-analysis of the deposited data

How the results depend on the processing

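Whether a member passes depends on whether replicates are taken as paired. The number of genes passing was 48 without the replicate block, 1279 with it, 997 with the block and quantile normalization, 1033 with the block on assembled loci, 75 after upper quartile scaling, 96 on the coverage column and 2 with no filter. It ran from 0 to 241 when a library or pair was left out. At 0 calls in limma, 1606, 1033, 1115 and 2557 genes had an unadjusted p under 0.05 (without agonist replicate 2, vehicle replicate 2, vehicle replicate 3 and pair 2). With quantile normalization the blocked calls were 519 higher and 478 lower, against 498 and 781 without it. The number of members passing was 0 without the block, 4 with it alone, with quantile normalization or with copies added, 2 (Ddit4 and Slc16a1) on assembled loci with it, and 0 to 2 when a library or pair was left out. Emb and Hif1a lost their calls with no filter, at adjusted p of 0.179 and 0.175, and Emb at 0.0558 on assembled loci.

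Apart from the fits that left out a library or pair, the values that took the opposite sign were close to zero. Upper quartile scaling gave log2 differences of 0.0108 for Hk2, 0.0341 for Pdk1, 0.0253 for Pfkp, 0.0157 for Ldhb and 0.0089 for Eno1. Quantile normalization, without and with the block, gave 0.0328 for Pdk1, 0.0348 for Pfkp and 0.021 for Ldhb. The coverage column gave -0.045 for Slc2a3, -0.0207 for P4ha1, -0.0219 for Pfkfb3 and -0.0223 for Pfkm. Assembled loci, without and with the block, gave -0.0096 for P4ha1, -0.0121 for Pfkfb3, -0.0273 for Pfkm and -0.0046 for Hk1. Added copies, without and with the block, gave -0.018 for Gapdh, against 0.35 in the main fit. The cause of these changes was not tested.

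When libraries or pairs were left out, the log2 difference ranged from -0.0364 to 0.10 for Bsg, -0.14 to 0.0748 for Eno1, -0.14 to 0.80 for Gapdh, -0.0173 to 0.0292 for Gpi1, -0.0347 to 0.23 for Higd1a, -0.0367 to 0.0697 for Hk1, -0.24 to 0.14 for Hk2 and -0.18 to 0.12 for Ldha. It ranged from -0.14 to 0.0997 for Ldhb, -0.0933 to 0.10 for P4ha1, -0.0607 to 0.0302 for Pdk1, -0.0411 to 0.13 for Pfkfb3, -0.016 to 0.27 for Pfkl, -0.0345 to 0.10 for Pfkm, -0.10 to 0.0658 for Pfkp and -0.20 to 0.0485 for Pgam1. The range was -0.17 to 0.0038 for Pgd, -0.0616 to 0.12 for Pgk1, -0.0391 to 0.0766 for Pkm, -0.0095 to 0.23 for Slc2a3, -0.66 to 0.0433 for Tfrc, -0.0004 to 0.29 for Tpi1 and -0.0809 to 0.26 for Txnip. For the log2 ratios it was -0.30 to 0.20 for Hk2 over Hk1, -0.28 to 0.26 for Ldha over Ldhb and -0.19 to 0.12 for Slc2a3 over Slc2a1. Where an arm kept 2 libraries, the spread was pooled over both groups.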

Other observations

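Among the pathway genes outside the set, a few levels were chosen for mention after their values were seen. Mpc1, a subunit of the carrier that takes pyruvate into mitochondria, varied between libraries far more than its neighbours, at 30.3, 23.1 and 5.97 FPKM in agonist libraries, against 7.02, 4.97 and 46.7 FPKM in vehicle libraries. Eno3, the enolase known from muscle, stood at 25.0, 30.8 and 34.9 FPKM in agonist libraries, against 33.9, 28.3 and 29.0 FPKM in vehicle libraries, well above Eno2 on the same per-length scale. Epo, the hormone of red cell formation, was listed at 4.32, 3.64 and 4.44 FPKM in agonist libraries, against 3.97, 4.66 and 3.72 FPKM in vehicle libraries. Its reference interval on chromosome 5, 137483020 to 137533242, overlaps 3 expressed genes on its own strand and 3 on the other.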
